A study of Homo sapiens with 5 samples.

Results

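Imprinted genes are expressed mainly from the maternal or the paternal copy, and the set described here comprises 36 such genes on 11 chromosomes, none of them on chromosomes 11 or 15. The 36 members were taken from a list of symbols, all of which matched the RefSeq annotation of GRCh38.p14 directly, out of 58961 annotated genes. Of these members, 30 are protein-coding and 6 are non-coding RNA genes, and their bodies run from 1958 bp in DIO3 to 730855 bp in TRAPPC9. Trimethylation of lysine 9 of histone H3 (H3K9me3) was profiled by chromatin immunoprecipitation and sequencing in HEK293T cells, an established line derived from human embryonic kidney. There are 3 H3K9me3 libraries (KD, WT and EV) and 2 input libraries (WT and EV) in the labels, all from this line. KD is read as the knockdown of KCNQ1OT1 and EV as its empty-vector control. The design text writes the target as KCNQ1OT1_K and does not say what the suffix means. KCNQ1OT1 is itself a non-coding RNA of an imprinted domain on chromosome 11, so the genes below lie outside the domain it is transcribed from. Peak lists could be tied by name to KD and EV. Another list carries no genotype in its name. It was not tied to WT and stands for no group, and its values are given only beside those of the whole lists and of all protein-coding genes. Each group has 1 library and no replicate, so no test between KD and EV was possible. The files hold no reads, so the depth is unknown, and the lists do not tell the parental copies apart. On chromosomes 1 to 22, X and Y, 12650 peaks were listed in KD and 24665 in EV. The KD library yielded far fewer peaks, and how much of each difference below reflects that was not tested.

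At many imprinted loci the copy from 1 parent carries DNA methylation set in the egg or the sperm, over a CpG-rich region that is often the promoter. In the early embryo the zinc finger proteins ZFP57 and ZNF445 bind the methylated copy and, through TRIM28 and the methyltransferase SETDB1, keep H3K9me3 on it. H3K9me3 at a promoter of an imprinted gene is therefore commonly a feature of the silent copy, next to an active copy without it.

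A peak in the gene body was listed for 13 of the 36 members in KD and for 18 in EV. These are 36.1% and 50% of the members. Among all 19866 protein-coding genes the share was 11.5% in KD and 24.6% in EV. In 12 members (33.3%) a KD peak and an EV peak overlapped each other inside the body, against 9.26% of protein-coding genes. Counting only the 30 protein-coding members gave 11 in KD, 16 in EV and 10 with overlapping peaks. Several members share peaks because their bodies overlap, as NNAT and BLCAP, PEG3 and ZIM2, and IGF2R and AIRN do, so the 12 members stand for 9 separate places. Limiting EV to its strongest 12650 peaks left 15 members in EV, against a background of 14.1%. Among peaks of at least 3-fold enrichment there were 13 members in KD and 10 in EV, against backgrounds of 10.3% and 15.1%. The lists differ in their scale of fold enrichment, with medians of 3.68 in KD and 3.12 in EV over all peaks. No difference between the lists is therefore read from this cut.

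**Figure D1:**
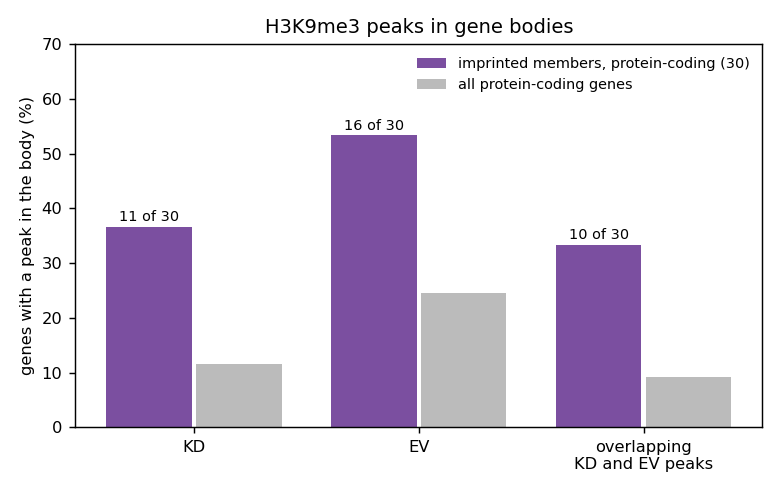
Share of genes (%, vertical axis) with at least 1 H3K9me3 peak in the gene body, for the 30 protein-coding imprinted members (purple) and all protein-coding genes (grey), in KD, in EV, and with a KD and an EV peak that overlap each other. The member counts are 11, 16 and 10 of 30, and each purple bar stands above its grey bar.

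Gene length matters for such counts, since longer genes hold a peak more often. Protein-coding members of 10 to 50 kb had a peak in 5 of 12 cases in KD and 7 of 12 in EV, against 6.94% and 18.7% of all protein-coding genes of that length. Overlapping KD and EV peaks were found in 5 of these 12, against 5.43%. Members of 50 to 200 kb had 5 of 11 in KD and 4 of 11 in EV, against 17.8% and 41.8%, so here the EV count was near its background. Overlapping peaks were found in 4 of these 11, against 14.7%. Under 10 kb the counts were 1 of 5 in KD and 3 of 5 in EV, against 5.98% and 7.11%, and 1 had overlapping peaks, against 4.25%. The pair of members above 200 kb, GRB10 and TRAPPC9, had no KD peak, and both had EV peaks. Of all protein-coding genes of that length, 38.2% had a KD peak and 68.4% an EV peak. Some shared peaks count in more than 1 of these classes. Those of NNAT and BLCAP count under 10 kb and at 10 to 50 kb. Those of PEG3 and ZIM2 count at 10 to 50 kb and at 50 to 200 kb.

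With 10 kb on either side added, 14 members had a peak in KD and 22 in EV, against 16% and 35.3% of protein-coding genes. The KD list held 11 separate peaks there, all in gene bodies. The EV list held 26, of which 22 overlapped a body. Peaks covered 0.471% of the merged member bodies in KD and 0.744% in EV, a KD/EV ratio of 0.634. For the merged bodies of all protein-coding genes these values were 0.201% and 0.684%, a ratio of 0.294.

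**Figure D2:**
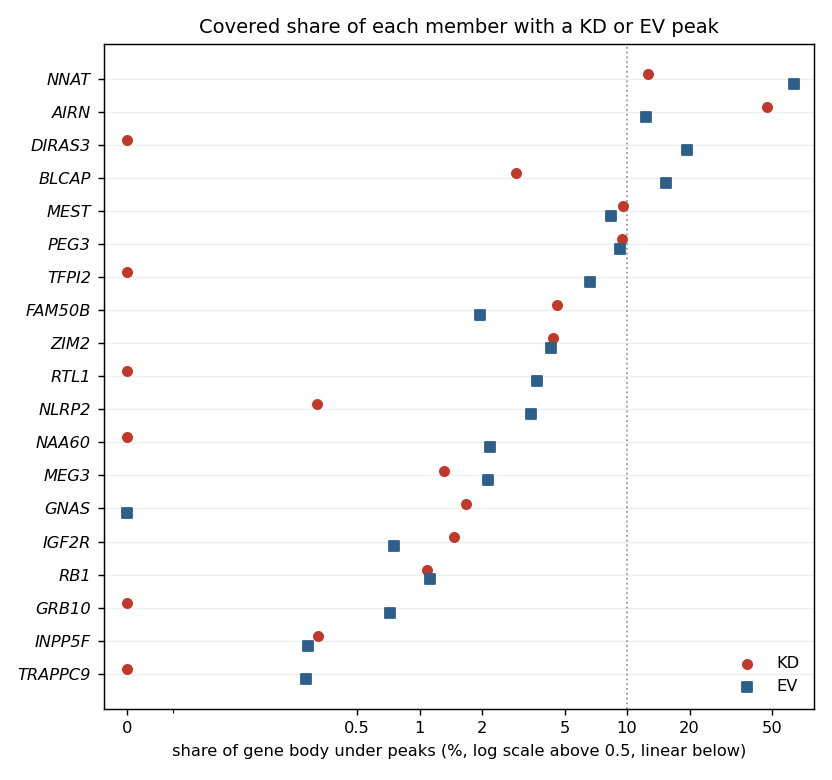
Share of the gene body under peaks (%, horizontal axis, logarithmic above 0.5 and linear below) in KD (red circles) and EV (blue squares) for the 19 members with a peak in the body in either list. NNAT reaches 63.7% in EV, AIRN reaches 47.5% in KD, and the dotted line marks 10%.

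NNAT had the highest covered share of any member in EV and AIRN the highest in KD. At least 10% of the body was covered in 2 members in KD, NNAT and AIRN, and in 4 in EV, NNAT, AIRN, DIRAS3 and BLCAP, against 1.55% and 2.76% of protein-coding genes. These shares were not matched for length, and a peak of given width covers more of a short gene. The 4 genes are 2441, 4374, 4666 and 10460 bp long, in the order named, where the median protein-coding gene has 24469 bp. AIRN is also non-coding. NNAT, a paternally expressed gene of a small membrane proteolipid of the brain, was covered to 12.6% in KD and 63.7% in EV. Its KD peak, at chr20:37521374-37521680, spanned 307 bp, at 3.95-fold enrichment and with a −log10 p of 4.88. Its EV peak, at chr20:37521197-37522805, spanned 1609 bp, at 3.39-fold enrichment and with a −log10 p of 5.94. Fold enrichment, the ratio over the peak caller's background, and −log10 p are the authors' values for each peak, and since each list has its own scale no difference is read from them. The EV peak began 53 bp before the annotated start of NNAT, whose promoter is known to be methylated on the maternal copy, and the KD peak lay wholly inside it. NNAT sits within an intron of BLCAP, a growth-suppressing gene of which some transcripts are imprinted, so the same peaks covered BLCAP to 2.93% in KD and 15.4% in EV.

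PEG3 and ZIM2, zinc finger genes of chromosome 19 that share a promoter and are expressed from the paternal copy, carried nearly the same peak in both lists. It lay at chr19:56837822-56840733 in KD, 2912 bp with a fold enrichment of 4.26, and at chr19:56837808-56840654 in EV, 2847 bp with a fold enrichment of 3.56. Both genes end at position 56840726 in the annotation, which is their 5′ end because they are transcribed towards lower coordinates. The KD peak passed this end by 7 bp and the EV peak stopped 72 bp short of it. Of the EV peak, 99.5% of the bases lay under the KD peak. Covered shares were 9.48% in KD and 9.29% in EV for PEG3, and 4.39% and 4.3% for ZIM2.

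MEST, a paternally expressed gene of the hydrolase fold family, had a peak over its internal promoters. In KD it lay at chr7:130491280-130493209, 1930 bp with a fold enrichment of 4.97, the highest fold of any KD peak of the members. In EV it lay at chr7:130491390-130493084, 1695 bp with a fold enrichment of 2.96, wholly inside the KD peak. RefSeq starts at positions 130492058 and 130492085 lay inside both peaks. The start at 130491329 lay inside the KD peak and 61 bp from the EV peak. The upstream starts of MEST, at 130486175 and 130486347, had no peak of either list within 2 kb. MIR335, a microRNA gene hosted by MEST, lay 2902 bp from the KD peak and 3027 bp from the EV peak.

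FAM50B, a retrocopy on chromosome 6 that is expressed from the paternal copy, had peaks just downstream of its start at 3849373. The KD peak, at chr6:3849816-3850710, was 895 bp wide and began 443 bp from this start. The EV peak, at chr6:3849869-3850246, was 378 bp wide and lay wholly inside it. INPP5F encodes an inositol phosphatase, and a short transcript from an internal start is known to come from the paternal copy. Its peaks lay beside an internal start at 119819269, with 428 bp at chr10:119818409-119818836 in KD and 405 bp at chr10:119818436-119818840 in EV. They ended 433 and 429 bp upstream of that start in KD and EV, and the main start at 119726496 had no peak within 2 kb.

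Among the genes of non-coding RNAs, AIRN and MEG3 carried overlapping peaks. AIRN runs antisense to IGF2R, the gene of the receptor that takes up and degrades the growth factor IGF2. Its KD peak, at chr6:160004421-160006497, was 2077 bp wide and covered 47.5% of AIRN. The EV peak at the same place, chr6:160005887-160006422, was 536 bp wide and covered 12.3%. Both lay in the region near the AIRN start, 1167 bp from it in KD and 1242 bp in EV, where methylation of the maternal copy is known. A further EV peak in IGF2R, at chr6:159996629-159997166, had no KD peak, and IGF2R as a whole was covered to 1.46% in KD and 0.754% in EV. MEG3, a maternally expressed growth-suppressing RNA of chromosome 14, had a KD peak of 457 bp at chr14:100827728-100828184 inside an EV peak of 595 bp at chr14:100827663-100828257. A second EV peak, at chr14:100825022-100826261, spanned all 3 listed MEG3 starts and had no KD peak.

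RB1 and NLRP2 completed the shared places. RB1, the retinoblastoma tumour suppressor, had a 1931 bp peak at chr13:48318489-48320419 in KD and a 1993 bp peak at chr13:48318313-48320305 in EV. Both lay inside the annotated pseudogene PPP1R26P1, an intronic retrocopy in RB1 known for a CpG island methylated on the maternal copy. They began 14738 and 14562 bp from the left end of RB1 in KD and EV. This was also the only place in or near a member where the list without a genotype overlapped KD or EV, with a 2535 bp peak at chr13:48318493-48321027. That list thus overlapped 1 of the 11 KD peaks and 1 of the 26 EV peaks of the members, where it overlapped 45.5% of all KD and 24.7% of all EV peaks. NLRP2, a gene of the NOD-like receptor family that acts in the oocyte, shares its start region with NLRP7. Its peak was 2564 bp at chr19:54962868-54965431 in KD and 3691 bp at chr19:54962824-54966514 in EV, and both spanned the NLRP2 start at 54965284. The EV peak had a −log10 p of 14.1, at percentile 90.9 of its list. In NLRP2 itself it covered 3.43%, and the KD peak 0.413%.

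**Figure D3:**
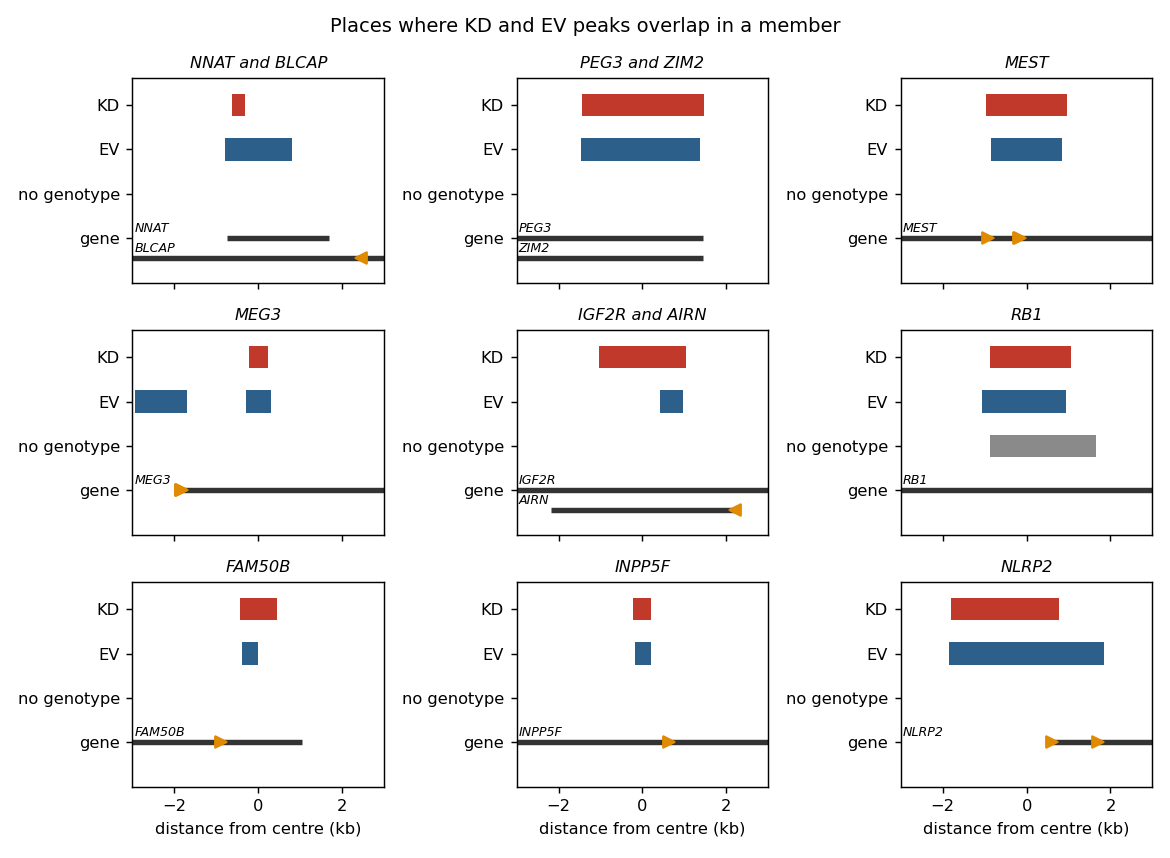
Peaks at the 9 places where a KD and an EV peak overlap in a member, drawn to scale as distance from the centre of both peaks (kb, horizontal axis), with KD in red, EV in blue and the list without a genotype in grey. Black lines are gene bodies and orange arrowheads the listed starts with their direction; NNAT, PEG3 and ZIM2 have no listed start, and a grey bar appears at RB1 only.

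At these 9 places neither list had the wider peak throughout. The KD peak was the wider of the pair at 5 of them, PEG3, MEST, IGF2R with AIRN, FAM50B and INPP5F, and the EV peak at 4. Summed widths were 13501 bp in KD and 13749 bp in EV. The KD peak was the wider in 12.8% of all 11154 overlapping pairs of the lists, and in 20.5% of the pairs inside protein-coding genes.

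Promoters were examined where a listed start lay within 2 kb of a peak. Starts were listed for 25 members. Of these, 7 had a peak within 2 kb in KD and 10 in EV, against 3.55% and 5.25% of protein-coding genes with a listed start. The non-coding AIRN and MEG3 are among both counts. A gene counted if any of its starts was near a peak. The 25 members have 54 listed starts, against 35116 for all 27305 genes listed, so they had more chances. The 250 bases before the start are shown for the 8 members whose peaks within 2 kb had the highest fold enrichment in KD or EV, from RefSeq on GRCh38.p14, each 5′ to 3′ on the gene's own strand with CG dinucleotides, where DNA methylation sits, in capitals. They show how much these regions differ in CpG number, from 2 in AIRN to 20 in TFPI2. MEST is chr7:130491079-130491328 (plus strand), AIRN chr6:160007665-160007914 (minus), MEG3 chr14:100825858-100826107 (plus) and NLRP2 chr19:54965034-54965283 (plus). TFPI2 is chr7:93890754-93891003 (minus), BLCAP chr20:37524454-37524703 (minus), INPP5F chr10:119819019-119819268 (plus) and DIRAS3 chr1:68050628-68050877 (minus).
MEST: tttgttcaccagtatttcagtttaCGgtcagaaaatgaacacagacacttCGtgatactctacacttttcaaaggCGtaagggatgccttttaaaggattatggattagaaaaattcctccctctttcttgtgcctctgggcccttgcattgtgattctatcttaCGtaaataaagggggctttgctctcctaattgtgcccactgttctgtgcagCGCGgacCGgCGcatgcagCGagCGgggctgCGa
AIRN: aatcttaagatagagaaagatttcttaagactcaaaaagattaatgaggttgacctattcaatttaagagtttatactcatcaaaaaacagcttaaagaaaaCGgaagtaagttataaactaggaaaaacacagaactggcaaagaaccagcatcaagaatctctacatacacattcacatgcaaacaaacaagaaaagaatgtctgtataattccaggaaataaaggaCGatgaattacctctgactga
MEG3: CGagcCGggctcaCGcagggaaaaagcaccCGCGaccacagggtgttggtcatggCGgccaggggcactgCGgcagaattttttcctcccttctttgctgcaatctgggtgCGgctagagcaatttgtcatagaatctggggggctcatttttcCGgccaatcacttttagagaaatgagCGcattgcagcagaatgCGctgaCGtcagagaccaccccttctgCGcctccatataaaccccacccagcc
NLRP2: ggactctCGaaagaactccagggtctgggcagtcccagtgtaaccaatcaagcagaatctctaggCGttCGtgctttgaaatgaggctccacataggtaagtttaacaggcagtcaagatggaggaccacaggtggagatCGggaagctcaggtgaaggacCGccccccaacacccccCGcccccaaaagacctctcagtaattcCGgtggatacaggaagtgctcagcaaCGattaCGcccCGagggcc
TFPI2: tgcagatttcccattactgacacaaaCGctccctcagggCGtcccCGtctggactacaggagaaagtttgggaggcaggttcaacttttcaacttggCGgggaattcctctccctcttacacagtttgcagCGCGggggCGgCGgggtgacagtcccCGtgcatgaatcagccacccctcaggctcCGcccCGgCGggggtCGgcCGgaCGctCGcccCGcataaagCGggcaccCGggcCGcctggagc
BLCAP: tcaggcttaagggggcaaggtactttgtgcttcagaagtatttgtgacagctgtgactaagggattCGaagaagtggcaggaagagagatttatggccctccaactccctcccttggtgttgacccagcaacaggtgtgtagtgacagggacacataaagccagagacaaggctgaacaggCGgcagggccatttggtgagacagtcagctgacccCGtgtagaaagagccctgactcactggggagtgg
INPP5F: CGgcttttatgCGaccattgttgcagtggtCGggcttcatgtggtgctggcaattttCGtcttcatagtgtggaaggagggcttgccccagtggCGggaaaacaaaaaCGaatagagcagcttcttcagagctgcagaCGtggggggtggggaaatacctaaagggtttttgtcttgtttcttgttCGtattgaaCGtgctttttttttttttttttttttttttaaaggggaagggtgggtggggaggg
DIRAS3: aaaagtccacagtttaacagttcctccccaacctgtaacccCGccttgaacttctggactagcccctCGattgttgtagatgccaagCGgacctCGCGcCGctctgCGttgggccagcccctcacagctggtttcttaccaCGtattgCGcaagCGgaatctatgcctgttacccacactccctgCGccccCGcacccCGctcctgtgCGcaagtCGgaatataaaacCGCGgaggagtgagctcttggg

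The core of the site that ZFP57 binds when methylated, TGCCGC or its reverse complement GCGGCA, was searched in the full windows of 300 bases, which add 50 bases after the start. It was present in 19 of the 54 listed windows of the members (35.2%), against 16.7% of all 35116 windows in the table. By gene this was 12 of 25 members, against 19.5% of all 27305 genes listed. The members have more windows per gene than the genes listed as a whole, so the count by gene gives them more chances. Some windows overlap, as those of MEG3 do, and PLAGL1 and HYMAI share a window. The letters occurred in 7 of the 17 member windows with a KD or EV peak within 2 kb of the start and in 12 of the 37 without. Both MEG3 and BLCAP hold the letters in the sequence printed above, and DIRAS3 holds them in its full window but not in the printed part. MEST holds them in its windows at starts 130492058 and 130492085, which lie inside both peaks. The MEST window printed above, at start 130491329, does not hold them. The median number of CpG was 18 in the windows near a peak, 22 in the other member windows and 14 in all windows. Over all 54 member windows it was 20. The letters themselves contain a CpG, and their shares were not matched for CpG number.

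Peaks of the EV list alone were found in 6 members, against 14.7% of protein-coding genes. DIRAS3, a Ras-related growth suppressor expressed from the paternal copy, had EV peaks of 1752 bp at chr1:68050089-68051840, across its start, and of 368 bp at chr1:68046920-68047287. Together they covered 19.4% of the gene in EV, and the nearest KD peak was 767 kb away. Their −log10 p was 4.1 and 3.82, at percentiles 37.9 and 29.8 of the EV list, so both were weak calls. KD peaks overlapped 23.2% of all EV peaks with a −log10 p of 4 to 5 and 8.52% of those below 4. GRB10, an adaptor that dampens insulin receptor signalling, had an EV peak of 498 bp at chr7:50782547-50783044 over an internal start at 50782896, and another at chr7:50736631-50737589, with the nearest KD peak 83.9 kb away. TFPI2, a protease inhibitor gene imprinted in the placenta, had an EV peak of 376 bp at chr7:93890400-93890775 across its start. NAA60, an N-terminal acetyltransferase gene, had an EV peak of 950 bp at chr16:3449476-3450425 with a −log10 p of 7.64, and another 1.9 kb beyond its end. TRAPPC9, which encodes a trafficking complex subunit, had 3 EV peaks over 0.39% of its length. The GRB10 peaks stood at percentiles 27.4 and 3.72 of −log10 p in the EV list, and those of TRAPPC9 at 0.916, 53.4 and 11. The TFPI2 peak stood at percentile 57 and the NAA60 body peak at 77.3.

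RTL1, a retrotransposon-derived gene needed in the placenta, was the sixth, with EV peaks at chr14:100881103-100881608 and chr14:100883216-100883590. These were weak, at percentiles 21 and 1.51 of −log10 p in the EV list. They lie among microRNA genes that are transcribed opposite to RTL1 and whose products are fully complementary to its RNA. The first peak overlapped the hairpin of MIR431 and the second began 141 bp from MIR127. The mature RNAs of both genes are shown with the seed, bases 2 to 8, in capitals, from RefSeq, and no seed is shared between them.
hsa-miR-431-5p: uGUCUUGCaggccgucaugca
hsa-miR-431-3p: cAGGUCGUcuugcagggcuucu
hsa-miR-127-5p: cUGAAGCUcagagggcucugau
hsa-miR-127-3p: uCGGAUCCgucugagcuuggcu

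GNAS was the only member with a KD peak and no EV peak in the body, a pattern found in 1.65% of protein-coding genes. GNAS encodes the stimulatory G protein alpha subunit and, from upstream promoters, further imprinted transcripts. Its KD peaks lay on both sides of listed starts at 58852716 and 58852981. The first, at chr20:58851444-58851822, spanned 379 bp at 3.17-fold enrichment, and the second, at chr20:58854180-58855001, spanned 822 bp at 3.18-fold enrichment. They stood at percentiles 3.52 and 33.9 of −log10 p in the KD list, so both were weak calls. The antisense RNA gene GNAS-AS1 runs opposite to GNAS, and its right end, which is its 5′ end, lies 542 bp from the first of them. The nearest EV peak was 205 kb from GNAS.

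The member peaks were of middling strength in their own lists. Their median fold enrichment was 3.64 in KD and 2.91 in EV, against list medians of 3.68 and 3.12, and their median −log10 p was 5.04 in KD and 4.83 in EV, against 4.98 and 4.67. Of the 11 KD peaks, 9 were overlapped by EV (81.8%, exact Clopper-Pearson interval 48.2 to 97.7), near the 87.7% of all KD peaks. Of the 26 EV peaks, 9 were overlapped by KD (34.6%, interval 17.2 to 55.7), near the 37.7% of all EV peaks. These intervals cover counting error over peaks only. Strong EV peaks were found more often throughout the list, so the members were also read by strength. Below a −log10 p of 4, KD found 0 of 10 member peaks of EV, against 8.52% of all EV peaks of that strength. Between 4 and 5 it was 1 of 4, against 23.2%, and between 5 and 6 it was 6 of 8, against 40.8%. Between 6 and 8, 1 of 2 was found, against 58.3%, and the single peak between 8 and 20, that of NLRP2, was found, against 81.4%. The single peak of 20 or more was not found, against 98.9% of all EV peaks of that strength. Among the strongest 12650 EV peaks, 9 of the 14 at members were found (64.3%), near the 62.1% of all of them.

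**Figure D4:**
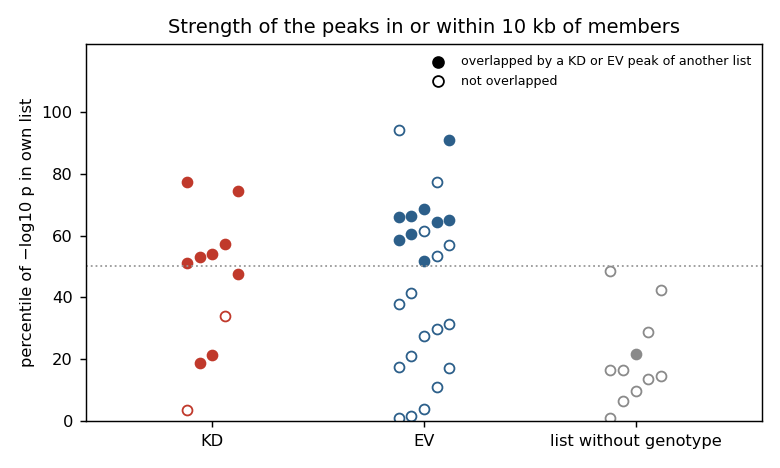
Percentile of −log10 p within its own list (vertical axis) for each separate peak in or within 10 kb of a member, in KD, EV and the list without a genotype; filled points are overlapped by a KD or EV peak of another list. The 10 EV peaks below a −log10 p of 4 are all open points.

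No KD or EV peak lay in the body of the other 17 members, against 73.7% of protein-coding genes without either, and 5 of these had a peak within 10 kb. For COPG2, a coatomer subunit gene, CPA4, a carboxypeptidase gene reported as maternally expressed, MEG8, a maternally expressed RNA, and L3MBTL1, a chromatin reader, this was an EV peak, and for GNAS-AS1 it was the KD pair described above. The EV peak lay 7.26 kb from COPG2 and 3.42 kb from L3MBTL1, and those near MEG8, at 6.06 and 8.04 kb, are the RTL1 peaks. The remaining 12 had neither. They included the retrotransposon-derived PEG10 and its neighbour SGCE, the sarcoglycan gene, with KD peaks 435 and 363 kb away and EV peaks 35.6 and 49.2 kb away. PLAGL1, a zinc finger regulator of growth, and HYMAI, the RNA gene within it, had the nearest KD peaks at 13.5 and 78.1 kb and EV peaks at 13.4 and 78 kb. DLK1, an inhibitor of fat cell formation, had its nearest peaks at 71.8 kb in KD and 69.4 kb in EV. DIO3, which inactivates thyroid hormone, KLF14, a transcription factor, DDC, an enzyme of dopamine synthesis, ZDBF2, TP73, a p53 relative, KCNK9, a potassium channel gene, and the RNA gene PEG13 made up the rest. Among these the nearest KD peak lay between 20.9 kb (ZDBF2) and 723 kb (KCNK9) away, and the nearest EV peak between 13.9 kb (TP73) and 358 kb (DIO3). A peak list holds only what passed its threshold, so the mark at these genes may be present below it.

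For 14 members the gene's own promoter was listed at a parental methylation mark set in the egg or the sperm. Of these 14, 6 had a body peak in KD and 7 in EV, and in 6 the peaks overlapped. The shares of all protein-coding genes were 11.5%, 24.6% and 9.26%. The overlapping set was NNAT, PEG3, ZIM2, MEST, AIRN and FAM50B. The other 22 members had 7 in KD, 11 in EV and 6 with overlapping peaks, beside the same shares. Being outside the list of 14 does not mean that a promoter lacks parental methylation. Paternally expressed members had a peak in 6 of 18 cases in KD and 8 in EV, and maternally expressed members in 4 of 11 cases in KD and 6 in EV, again beside 11.5% in KD and 24.6% in EV for all protein-coding genes. The differences between these classes were not tested.

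Genes of the proteins that set or keep imprints were taken as a separate list. Of 26 such genes, 6 had a body peak in KD and 8 in EV, against the 11.5% and 24.6% of all protein-coding genes, and the median covered share was 0 in both lists. NLRP7, which acts in the oocyte, was the only gene with at least 10% covered, with 11.2% in KD and 16.4% in EV, and part of this is the peak shared with NLRP2. The other genes of the list were covered to at most 4.95% in KD (SUV39H2) and 8.36% in EV (NLRP5, which had 0.697% in KD). No body peak was listed in KD or EV for ZFP57, ZNF445, TRIM28 or SETDB1.

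The list without a genotype held 14362 peaks on chromosomes, and 5 of the 36 members had a body peak in it, against 7.29% of protein-coding genes. PEG3 and ZIM2 carried 4 and 6 of its peaks, the widest being 1271 bp at chr19:56829784-56831054, and none lay at their shared promoter. PEG13 carried a peak of 549 bp at chr8:140099254-140099802, which also counts for TRAPPC9, the gene around it. TRAPPC9 had a second, at chr8:139750059-139750905, and RB1 a second at chr13:48468940-48470046.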

How the data were processed

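H3K9me3 ChIP-seq in HEK293T cells was deposited as 3 broad peak lists without headers. Per the submitters' processing notes, Bowtie2 aligned the reads to GRCh38 and MACS2 called the peaks. Versions, options, control libraries, filters and any pooling: not given in the sources used here. For each peak the authors deposited a fold enrichment (a ratio) and a −log10 p, and a −log10 q was read for KD and EV only. The integer score the authors deposited beside them was not used. The smallest −log10 q is 1.01 in KD and 1.01 in EV, so both lists stop near the same threshold. For the list without a genotype no such threshold can be given, which limits its overlaps with KD and EV. The values of 1 list could not be tied to a sample. The position of 1 EV peak near a member is not reported here.

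Gene bodies came from a RefSeq table of GRCh38.p14. From it 718 entries that carry coordinates of alternative sequences were left out. Peaks on chromosomes 1 to 22, X and Y were used. Overlap needed 1 bp, positions count from 1, and widths, covered bases and overlaps were computed with pandas 2.3.3 and numpy 2.4.6 under Python 3.11.15. Overlaps and covered bases were tested with placed and random intervals set against the EV peaks. For the random intervals they were compared with bedtools 2.31.1. Intervals are exact Clopper-Pearson 95% (scipy 1.17.1). Starts and sequences came from the RefSeq promoter and microRNA tables. NNAT, PEG3, ZIM2, PEG10, SGCE, MEG8, DLK1, GNAS-AS1, PEG13, KCNK9 and TRAPPC9 have no listed start. Each member with a peak in or within 10 kb in any list is named, and from other lists the genes covered to at least 10%. Of the genes for imprint proteins, the most covered of the rest in KD and in EV are named too, with ZFP57, ZNF445, TRIM28 and SETDB1 named for their role. The members, lists and alternatives were chosen with earlier results of these data known, and the strength classes and the width comparison after the values were seen. Plots used matplotlib 3.10.9.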

Additional observations from a re-analysis of the deposited data

Results flagged for a closer look

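The list without a genotype lies outside the comparison of KD with EV, and it holds peaks in the bodies of 5 members, PEG3, ZIM2, PEG13, TRAPPC9 and RB1. No control list was available to set it against. Its 11 separate peaks in or within 10 kb of members had a median −log10 p of 3.53, against 4.23 for that list as a whole.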

How the results depend on the processing

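Of 50 values recomputed under other settings, 40 stayed within 1.5 times the reported count or within the counting interval of the reported share, and 10 moved. For covered shares that interval counts single bases as if independent. It is therefore narrow, and small shifts of a covered share count as moved. With a fold enrichment of at least 3, EV had 10 members with a body peak, 12 with a peak within 10 kb, 5 with a peak near a start and 0.403% of the bodies covered, while KD had 13, 14, 7 and 0.471%. Each list has its own scale of fold enrichment, so this cut does not fall alike on KD and EV. With a −log10 q of at least 2 the covered share was 0.334% in KD and 0.555% in EV. Merging peaks within 3 kb gave 0.562% in KD and 1.07% in EV. With only the strongest 12650 EV peaks, EV covered 0.534%, and KD found 64.3% of the 14 EV peaks left, near the 62.1% of all such EV peaks. Restricting EV peaks to gene bodies, an alternative chosen after seeing the data, gave 40.9%. Depth is unknown and limits every absence of a peak. No paired analysis was possible because each group has 1 library.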

Other observations

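Genes next to the imprinted members were examined as a further list, of which 59 of 60 symbols matched. A body peak was listed for 6 of them in KD and 14 in EV, near the 11.5% and 24.6% of all protein-coding genes. In 6 the KD and EV peaks overlapped, against 9.26% of protein-coding genes. At least 10% of the body was covered in 2 genes in each list, ZNF835 and NLRP7, against 1.55% of protein-coding genes in KD and 2.76% in EV. ZNF835, a zinc finger gene on chromosome 19, was covered to 14.4% in KD and 39.4% in EV. NLRP7, which is in the list of imprint proteins too, was covered to 11.2% in KD and 16.4% in EV.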
